A study of Mus musculus with 2 samples.

Results

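Collagen chain genes encode the polypeptides that wind around each other to form collagen molecules. They were taken here by symbol: every gene of the count matrices whose symbol is Col, a type number, the letter a and a chain number. That rule found 44 of 32285 genes. At least 1 UMI was counted for 43 of them at E12.5 and for all 44 at E15.5. A UMI (unique molecular identifier) marks 1 captured RNA molecule. The cells came from limb skeletal muscles of wild-type (WT) C57Bl/6 mouse embryos, forelimbs and hindlimbs together, either at E12.5 or at E15.5 (embryonic day). Each age is 1 droplet library made with the 10x 3′ kit, and the number of embryos in a library is not given in the sources used here. With 1 library per age there are no replicates and no test was made, so every interval is a 95% interval for counting error only and says nothing of variation between embryos.

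Fibrillar collagens (types I, II, III, V, XI, XXIV and XXVII) build the rope-like fibres of skin, tendon and cartilage, and fibril-associated collagens (types IX, XII, XIV and others) sit on their surface. Type IV forms the sheet-like network of basement membranes under endothelium and around muscle fibres, multiplexins (types XV and XVIII) attach to that sheet, and type VI forms beaded filaments around cells. In the embryonic limb, cartilage condensations are known for types II, IX and XI, and tendon and loose connective tissue for types I and III.

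Sequencing gave 34907675 UMIs over 12941 barcodes at E12.5 and 46966083 UMIs over 5780 barcodes at E15.5, of which 11001 and 3916 cells were kept, with medians of 2321 and 9285.5 UMIs per cell. The libraries share 17 barcodes. Cells were clustered without the collagen genes and named by markers: connective tissue-like (8076 cells at E12.5, 1883 at E15.5), chondrocyte-like (1568 and 190), tenocyte-like (131 and 123), muscle-like (590 and 388), endothelial-like (127 and 150), mural-like (69, named at E15.5 alone), Schwann-like (29 and 84), immune-like (25 and 63), erythroid-like (40 and 40), mast-like (70 at E15.5) and epithelial-like (17 at E12.5), with 398 and 856 cells unnamed. The markers served to name the classes, so their presence in a class does not support its name. Above 10 CPM in their class at both ages were 14 of 14 muscle, 10 of 10 endothelial and 6 of 6 tenocyte markers. So were 12 and 13 of 13 chondrocyte markers and 11 and 12 of 12 connective tissue markers. CPM is the usual sequencing unit, the UMIs of a gene in a class scaled to the total UMIs of that class (counts per 10 to the power of 6). UMIs were counted at transcript 3′ ends, so no length scaling was applied, and levels of different chains compare only as far as their 3′ ends are captured alike.

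Sequences near the starts of 3 members and at 1 shared start are shown because the members they belong to carry the results: Col1a2 and Col3a1 as the leading chains of connective tissue, Col9a1 as a cartilage chain lower at E15.5 in connective tissue-like cells, and the head-to-head pair Col4a1 and Col4a2 as the leading chains of endothelium. They are RefSeq sequences of build GRCm38.p6, written 5′ to 3′ on the plus strand, which is the strand of all these genes but Col4a1, and the first 3 are trimmed to bases outside annotated exons. Capitals mark the GC box GGGCGG. They also mark the TATA box TATAAA. Both were searched on either strand, as was the CCAAT box.
Col1a2 (chr6:4505370-4505492): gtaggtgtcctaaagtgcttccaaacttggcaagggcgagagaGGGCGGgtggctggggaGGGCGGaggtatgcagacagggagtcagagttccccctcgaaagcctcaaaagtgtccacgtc
Col3a1 (chr1:45311288-45311537): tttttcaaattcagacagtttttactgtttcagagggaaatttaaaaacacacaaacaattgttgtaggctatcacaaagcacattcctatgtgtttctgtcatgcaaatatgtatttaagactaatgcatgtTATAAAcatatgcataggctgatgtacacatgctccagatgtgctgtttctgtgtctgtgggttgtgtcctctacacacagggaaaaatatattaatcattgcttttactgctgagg
Col9a1 (chr1:24177360-24177609): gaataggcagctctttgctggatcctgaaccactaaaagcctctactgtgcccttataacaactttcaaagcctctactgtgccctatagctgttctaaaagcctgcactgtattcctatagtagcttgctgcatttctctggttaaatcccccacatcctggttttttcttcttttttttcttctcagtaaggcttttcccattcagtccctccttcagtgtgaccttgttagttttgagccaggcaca
Col4a1 and Col4a2 (chr8:11312805-11312826): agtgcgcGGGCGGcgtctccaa

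The Col3a1 and Col9a1 stretches end at the base before the annotated gene. The Col1a2 stretch lies inside the annotated gene, which runs on the plus strand from chr6:4504814, between exons and beside the RefSeq start used for its window. It holds 2 GC boxes and is 59.3% G or C, and the Col3a1 stretch holds 1 TATA box and is 35.2% G or C. None of these letters is in the Col9a1 stretch, which is 43.6% G or C. The 22 bases of the last line lie in both annotated genes at once, since Col4a1 runs away from them on the minus strand and Col4a2 on the plus strand. RefSeq promoter windows of 300 bases (250 before a start and 50 after it) were matched for 35 of the 44 members, as 38 windows. GGGCGG was in 23 of those 38 windows (60.5%) against 35.7% of 32851 windows of all genes, CCAAT in 13 (34.2% against 37.4%), TATAAA in 5 (13.2% against 13.6%) and the Sox core AACAAT in 1 (2.63% against 10.7%). These are letter matches and no measure of binding. No window was matched for Col1a1, Col2a1, Col4a3, Col5a2, Col9a3, Col12a1, Col14a1, Col22a1 and Col26a1.

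Members also neighbour each other in the GENCODE annotation of the same build. Col4a4 and Col4a3 start 71 bases apart and point away from each other on chromosome 1, and Col4a6 and Col4a5 do so 1308 bases apart on the X chromosome. Col3a1 and Col5a2 end towards each other with 24614 bases between them, as do Col9a1 and Col19a1 with 9205. Col6a2 and Col6a1 follow each other on the same strand of chromosome 10, and Col6a6, Col6a5 and Col6a4 on chromosome 9.

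Collagen chains took a larger part of the RNA at E15.5 in connective tissue-like, chondrocyte-like, tenocyte-like, muscle-like and Schwann-like cells, and a smaller part in endothelial-like cells. Over all barcodes, cells of no class included, the 44 chains made up 0.704% of the E12.5 UMIs and 1.21% of the E15.5 UMIs. In connective tissue-like cells their summed level was 6576 and then 16921 CPM, with 1.36 (interval 1.35 to 1.37) as the log2 ratio of E15.5 over E12.5. Chondrocyte-like cells had 13278 and 20845 CPM (0.65, 0.63 to 0.67) and tenocyte-like cells 9680 and 19173 CPM (0.99, 0.93 to 1.05). The order of these classes at E15.5 turned under each of 5 alternatives (resolution 1, 4000 variable genes, both libraries clustered together, doublets kept, at least 1000 genes), with 15065 to 18596 CPM in chondrocyte-like and 19440 to 19996 CPM in tenocyte-like cells. Muscle-like cells held the least of the classes compared, 1319 and 1828 CPM (0.47, 0.41 to 0.53). Endothelial-like cells went the other way, with 5858 and 4287 CPM (-0.45, -0.51 to -0.39). Schwann-like cells had 3718 and 8069 CPM (1.12, 0.99 to 1.25), and mural-like cells 6564 CPM at E15.5. The Schwann-like class of E15.5 joins a cluster of 52 cells at 11193 CPM with a cluster of 32 cells at 2643 CPM, and the latter lies below the single E12.5 cluster.

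Free RNA in droplets can give UMIs of a gene to cells that do not express it, and the immune-like cells were taken as the level of that background. Where their collagen UMIs came from was not tested. Immune-like cells had 1274 and 379 CPM of summed collagen, and mast-like cells 271 CPM at E15.5. Erythroid-like cells had 1147 and 5745 CPM, above the immune-like level at E15.5 alone, where 5 cells held 76.6% of their collagen UMIs. The median erythroid-like cell was also higher. Collagen chains made up 0.0833% and 0.419% of its UMIs, against 0.0422% and 0.041% in the median immune-like cell. In the median muscle-like cell of E15.5 they made up 0.159%. Erythroid-like cells were not used as background, and would have set a higher one at E15.5. In the E12.5 immune-like class 77.2% of the collagen UMIs were in 5 of the 25 cells, and the median immune-like cell had 422 and 410 CPM. Relative to each class, the immune-like level was 96.6% and 20.7% of the muscle-like level, and 19.4% and 2.24% of the connective tissue-like level. A chain at or below the immune-like level was not told apart from free RNA, and whether the class expresses it was not tested. In E12.5 muscle-like cells that holds for Col3a1 (139 against 160 CPM), Col2a1 (111 against 252), Col11a1 (77.2 against 214), Col5a1 (50.7 against 83.9) and Col1a1 (45.5 against 68.7). The E12.5 immune-like levels rest on 167 collagen UMIs in all, where 3 UMIs make 22.9 CPM. Levels were compared with them without intervals, here and below, so small differences may lie within counting error.

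**Figure D1:**
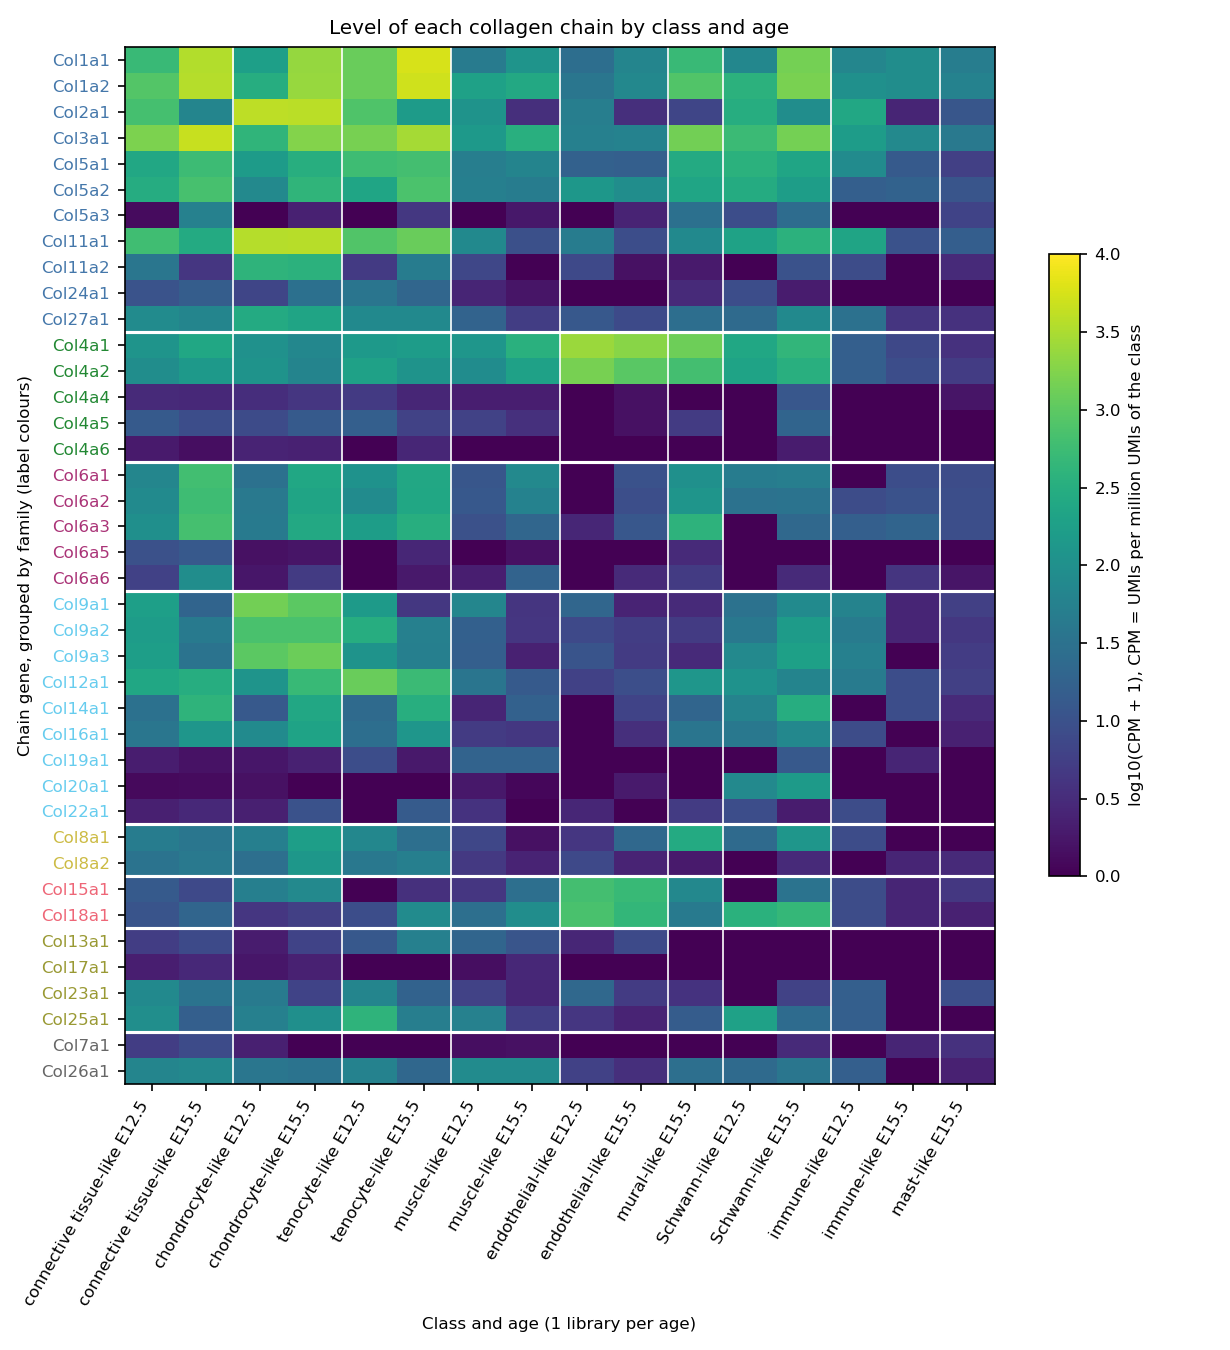
Level of each of 40 chains with at least 10 CPM in some class, as log10(CPM + 1) in colour, in each named class but the erythroid-like and epithelial-like ones at each age (1 library per age, UMIs summed over the cells of a class). The cartilage chains are strongest in the chondrocyte-like columns, and Col4a1, Col4a2 and Col15a1 in the endothelial-like ones. Col18a1 is strongest in the endothelial-like column at E12.5 and about as strong in the Schwann-like one at E15.5. The immune-like columns show the level taken as background, with the mast-like column beside them.

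Which chains led differed by class. Col3a1 was the most abundant chain of connective tissue-like cells at both ages (24.4% of their collagen UMIs at E12.5, 27.5% at E15.5) and ranked 8 among all genes there at E15.5. In chondrocyte-like cells it was Col2a1 (29.6% and 18.8%), and in endothelial-like cells Col4a1 (43.3% and 46%). In tenocyte-like cells the leader was Col3a1 at E12.5 (15.6%) and Col1a1 at E15.5 (29.9%). Tenocyte markers summed to 961 CPM in that class at E12.5 and to 3079 CPM at E15.5. Chondrocyte markers summed to 2026 and 163 CPM there, and the part of these differences was not tested. At E12.5 the connective tissue-like cluster led by Grem1 and Kera had 917 CPM of tenocyte markers and 321 CPM of chondrocyte markers. The border between tenocyte-like and connective tissue-like cells was thus not sharp at E12.5. Its part in their levels and ratios was not tested. In muscle-like cells the leader was Col1a2 (14.8%) and then Col4a1 (19.1%). By family, fibrillar chains gave 74.7% and 79.2% of the collagen UMIs of connective tissue-like cells, 70.3% and 74.6% in chondrocyte-like cells, and 66.8% and 86.9% in tenocyte-like cells. Endothelial-like cells had 6.49% and 7.56% from fibrillar chains, against 68.7% and 68.3% from type IV and 23.4% and 21.9% from multiplexins. Mural-like cells lay between these profiles, with 51.4% fibrillar, 29.5% type IV, 9.39% type VI and 4.3% short chain collagens (types VIII and X).

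**Figure D2:**
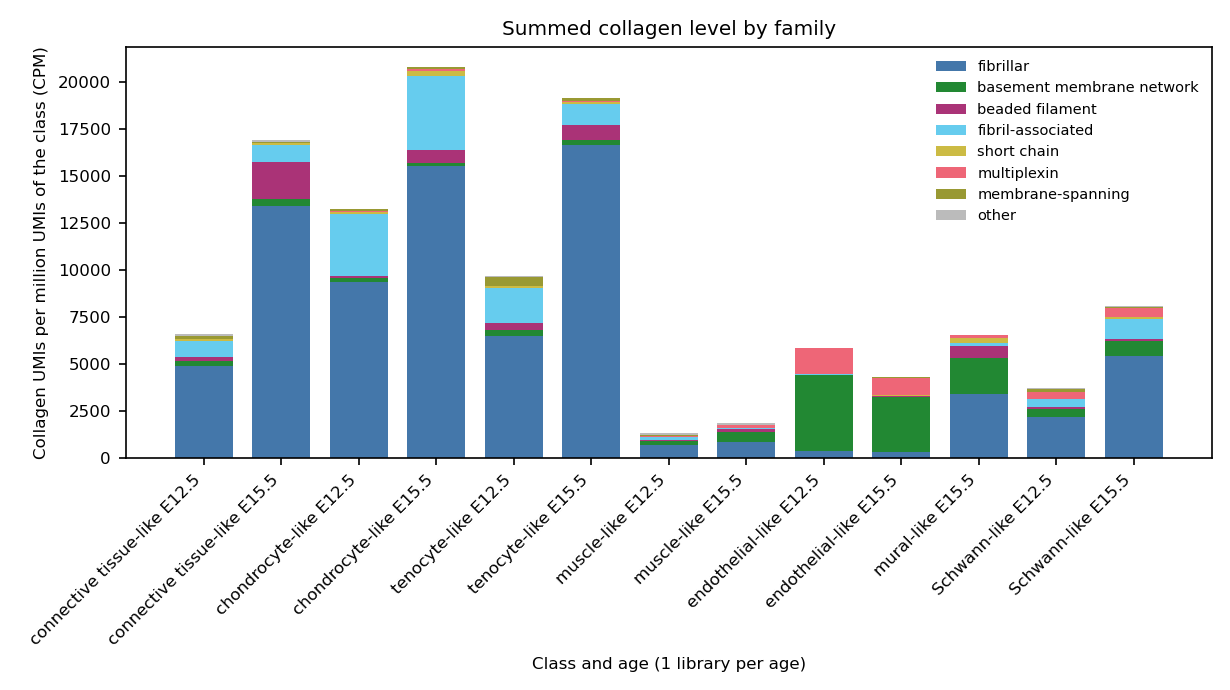
Summed collagen level (CPM) of each class at E12.5 and E15.5, stacked by collagen family. Fibrillar chains fill most of the bar in connective tissue-like, chondrocyte-like and tenocyte-like cells, and type IV with multiplexins in endothelial-like cells.

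Type I and type III chains, the main fibre formers outside cartilage, were higher at E15.5 in every mesenchymal class. Col3a1 encodes the single chain of type III collagen. Its connective tissue-like levels were 1604 and 4654 CPM (log2 ratio 1.54, 1.52 to 1.56), the E12.5 value first here and in all pairs. Its tenocyte-like levels were 1511 and 2929 CPM (0.95, 0.80 to 1.11), so that at E12.5 these classes did not differ beyond counting error (log2 0.09, -0.06 to 0.23) and at E15.5 connective tissue-like cells were higher (0.67, 0.62 to 0.72). Chondrocyte-like cells had 419 and 1781 CPM (2.09, 2 to 2.18). Col1a2 and Col1a1 encode the chains of type I collagen, which usually joins 2 pro-alpha1 chains with a single pro-alpha2 chain. In connective tissue-like cells Col1a2 was at 845 and 3561 CPM (2.07, 2.05 to 2.10) and Col1a1 at 522 and 3472 CPM (2.73, 2.70 to 2.76). Both were highest in tenocyte-like cells at both ages: Col1a1 at 1238 and 5729 CPM (2.21, 2.05 to 2.38), Col1a2 at 1203 and 5084 CPM (2.08, 1.91 to 2.25). The chondrocyte-like levels of Col1a2 were 313 and 2414 CPM (2.95, 2.85 to 3.04), and those of Col1a1 179 and 2329 CPM (3.70, 3.58 to 3.82). Muscle-like cells had 196 and 255 CPM of Col1a2 (0.38, 0.23 to 0.53) and, at E15.5, 329 CPM of Col3a1 and 117 CPM of Col1a1, where the E15.5 immune-like levels were 88.9 CPM for Col1a2, 74.9 for Col3a1 and 92 for Col1a1. At E15.5 mural-like cells had 1405 CPM of Col3a1, 814 of Col1a2 and 510 of Col1a1. In Schwann-like cells Col1a1 was at 69 and 1440 CPM, Col1a2 at 368 and 1585, and Col3a1 at 537 and 1460. The E15.5 clusters of that class differed, with 116 and 2202 CPM of Col1a1, 246 and 2356 of Col1a2 and 335 and 2108 of Col3a1, so that Col1a2 and Col3a1 were below the E12.5 level in the cluster of 32 cells. The 12 connective tissue markers summed to 1817 and 1634 CPM in Schwann-like cells (5 and 2 of 12 above 10 CPM), 241 and 193 in muscle-like cells and 1292 and 1525 in chondrocyte-like cells, against 2115 and 4608 in connective tissue-like cells, and their part in these levels was not tested.

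The balance of these chains also differed by age. Counted as UMIs, Col1a1 stood to Col1a2 as 0.618 and 0.975 (0.965 to 0.985 at the later age) in connective tissue-like cells, and as 0.571 and 0.965 in chondrocyte-like cells. In tenocyte-like cells the ratio was 1.03 and 1.13, in muscle-like cells 0.232 and 0.459, and in mural-like cells 0.627. Col3a1 stood to Col1a1 as 3.07 and 1.34 in connective tissue-like cells and as 1.22 and 0.511 in tenocyte-like cells. So type I chains gained on type III in both classes, and a ratio of UMIs is not a ratio of protein chains.

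**Figure D3:**
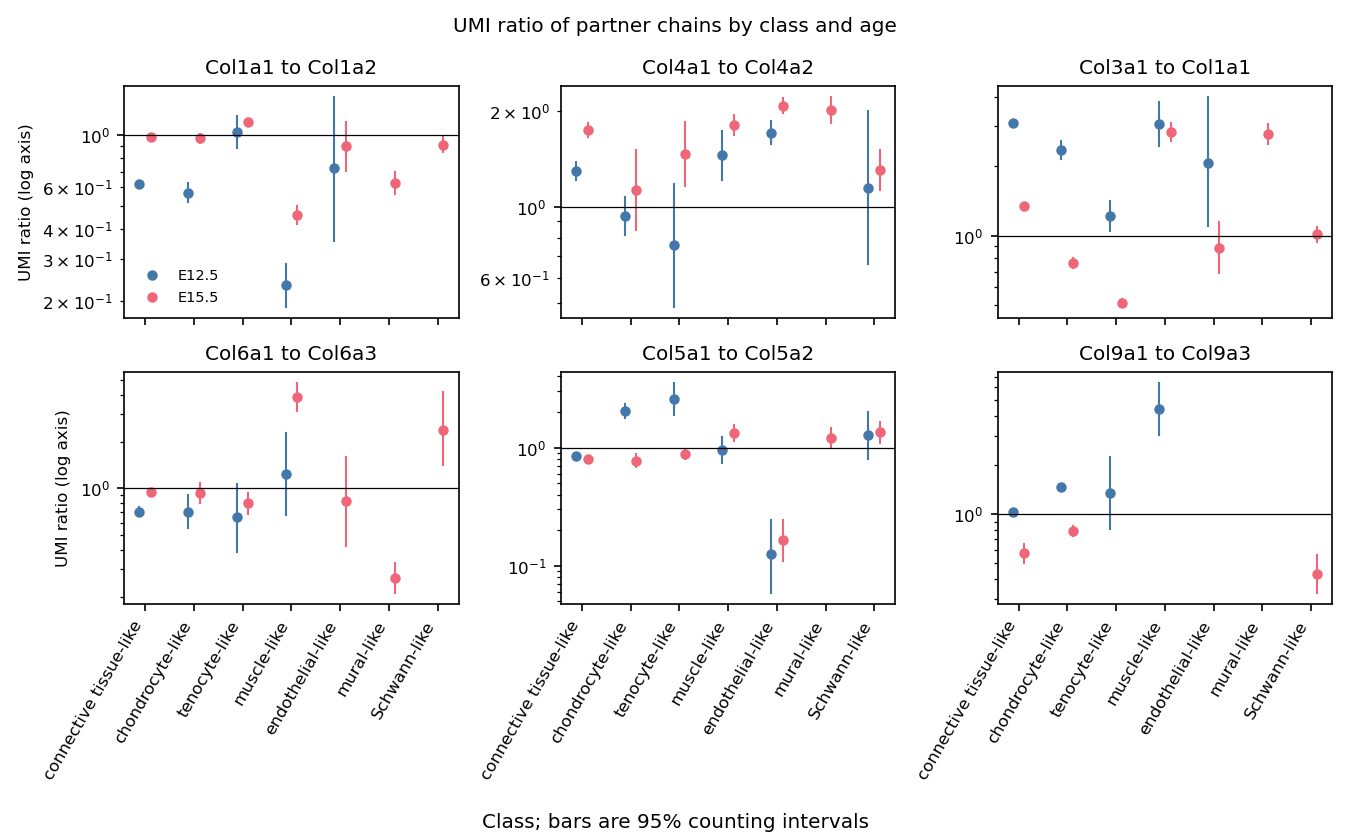
UMI ratios of 6 pairs of chains by class at E12.5 and E15.5 on a log axis, with 95% counting intervals. Col1a1 to Col1a2 is nearer to 1 at E15.5 in connective tissue-like and chondrocyte-like cells, and Col4a1 to Col4a2 is above 1 in endothelial-like and mural-like cells.

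Type V chains, minor partners that set the width of type I fibres, followed in part. Col5a2 was at 295 and 690 CPM in connective tissue-like cells (1.23, 1.18 to 1.27), 223 and 731 in tenocyte-like cells (1.71, 1.33 to 2.12) and 76 and 414 in chondrocyte-like cells (2.45, 2.25 to 2.65). Endothelial-like cells carried 131 and 91.8 CPM of it, against 16.5 and 15.1 CPM of Col5a1. Col5a1 was at 252 and 553 CPM in connective tissue-like cells (1.14, 1.09 to 1.18), 573 and 641 in tenocyte-like cells (0.16, -0.09 to 0.43) and 155 and 321 in chondrocyte-like cells (1.05, 0.88 to 1.23). The pair therefore stood at 0.127 and 0.165 (Col5a1 to Col5a2) in endothelial-like cells, where in tenocyte-like cells it was 2.57 and 0.876. Mural-like cells had 275 CPM of Col5a1 and 226 of Col5a2, and Schwann-like cells 360 and 222 CPM of Col5a1 and 284 and 166 of Col5a2. Col5a3, the third chain of the type, was counted in connective tissue-like cells with 6 UMIs (0.303 CPM) and then 1074 UMIs (55.6 CPM). The log2 ratio was 7.52 (6.39 to 8.97), the highest ratio estimated for a chain in the 5 classes compared between ages.

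In the classes as named here, cartilage chains were at like levels at both ages in chondrocyte-like cells. They were lower at E15.5 in connective tissue-like cells. Col2a1 encodes the chain of type II collagen, the main fibre of cartilage, and stood at 3934 and 3919 CPM in chondrocyte-like cells (-0.01, -0.05 to 0.04). Col11a1, a chain of the thin type XI fibres within which type II grows, stood at 3572 and 3744 CPM (0.07, 0.02 to 0.11), and its partner Col11a2 at 402 and 376 (-0.10, -0.24 to 0.04). The 3 chains of type IX, which coats cartilage fibres, were at 1426 and 992 CPM for Col9a1 (-0.52, -0.61 to -0.44), 714 and 703 for Col9a2 (-0.02, -0.13 to 0.08) and 966 and 1262 for Col9a3 (0.39, 0.31 to 0.47). Col27a1, a fibrillar chain of cartilage, was at 282 and 217 CPM (-0.38, -0.56 to -0.20). None of these 7 differed 2-fold between ages there. With collagen genes kept in clustering, the chains at least 2-fold lower at E15.5 in this class numbered 6 instead of 1. Col10a1, the chain of hypertrophic cartilage, reached at most 2.31 CPM.

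In connective tissue-like cells Col2a1 was at 658 and 65.6 CPM (-3.32, -3.41 to -3.24), and Col9a1 at 182 and 18.6 (-3.29, -3.46 to -3.14). Col9a3 went from 177 to 32.3 CPM (-2.45, -2.58 to -2.33) and Col9a2 from 164 to 44 (-1.90, -2.01 to -1.79). Col11a1 was less different, at 603 and 277 CPM (-1.12, -1.17 to -1.08). Markers of cartilage moved with these chains: the 13 chondrocyte markers summed to 1224 CPM in connective tissue-like cells at E12.5 (8 of 13 above 10 CPM) and to 195 CPM at E15.5 (5 of 13), and their part in the result was not tested. Within the class at E12.5 Col2a1 ranged from 85.1 CPM in 1 cluster to 1966 CPM in the cluster led by Gdf5, a joint-forming signal, and Scrg1. That cluster had 3534 CPM of chondrocyte markers, more than the larger E15.5 chondrocyte-like cluster (2468 CPM, with 1757 CPM of Col2a1). The border between these classes was thus not alike at both ages, and its part in the ratios was not tested. In tenocyte-like cells Col2a1 was at 796 and 154 CPM (-2.37, -2.67 to -2.07), Col9a2 at 308 and 55.1 (-2.48, -2.98 to -1.99), Col9a1 at 150 and 3.44 (-5.45, -7.39 to -3.97) and Col9a3 at 111 and 51.6 (-1.11, -1.77 to -0.42), with Col11a1 higher, at 807 and 1235 CPM (0.61, 0.40 to 0.83). When both libraries were clustered together the tenocyte-like ratios were -0.53 for Col2a1, -0.84 for Col9a2 and 0.0071 for Col9a3, none of them 2-fold. There too the chondrocyte markers were higher at E12.5, 2026 CPM (7 of 13 above 10 CPM, with Comp, Snorc and Ucma at 0) against 163 CPM (5 of 13, with Matn1, Matn3 and Snorc at 0), and their part was not tested. Col2a1 in muscle-like cells (111 and 2.46 CPM) did not exceed the E12.5 immune-like level. Schwann-like cells had 307 and 90 CPM of Col2a1 and 199 and 365 of Col11a1, while Col9a2 (38.3 and 157) and Col9a3 (76.7 and 186) were higher at E15.5 over the class. At E12.5 their Col9a2 and Col11a1 were below the immune-like levels of 45.8 and 214 CPM. In that E12.5 class 5 of the 29 cells held 41% of the collagen UMIs. In the E15.5 cluster of 32 cells Col9a2 was at 13.8 and Col9a3 at 5.53 CPM, and in that of 52 cells at 239 and 290 CPM.

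The chondrocyte-like class is not made of the same kinds of clusters at each age. At E12.5 it held 4 clusters with Col2a1 between 2261 and 5998 CPM, the highest led by Epyc and Matn1. At E15.5 it held 2. One, of 39 cells led by Matn1, had 10778 CPM of Col2a1, 7947 of Col11a1, 2638 of Col9a1 and 446 of Col1a1, and also 10288 CPM of summed haemoglobin and other erythroid markers, whose part was not tested. The other, of 151 cells led by Mia and Cytl1, had 1757 CPM of Col2a1 and 2923 of Col1a1, more of type I than of type II. The E12.5 clusters had 88.5 to 343 CPM of Col1a1. The class level of Col2a1 at E15.5 is thus an average over clusters that differ 6.13-fold.

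Basement membrane chains led in endothelial-like cells. Col4a1 and Col4a2, which together form the common type IV network, were at 2537 and 1974 CPM (-0.36, -0.45 to -0.28) and at 1486 and 953 CPM (-0.64, -0.76 to -0.53) in endothelial-like cells. At E12.5 the next class, Schwann-like cells, had 238 CPM of Col4a1 (3.42 lower on the log2 scale, 2.90 to 3.98). At E15.5 mural-like cells, the pericytes and smooth muscle of vessels, came next with 1292 CPM of Col4a1 and 642 of Col4a2 (0.61 and 0.57 lower than endothelial-like cells). Muscle-like cells had 126 and 348 CPM of Col4a1 (1.47, 1.30 to 1.64) and 86.9 and 193 of Col4a2 (1.15, 0.94 to 1.37), at immune-like levels of 15.3 and 6.24 CPM for Col4a1. In connective tissue-like cells Col4a1 was at 119 and 239 CPM (1.01, 0.94 to 1.09) and Col4a2 at 91.7 and 138 (0.59, 0.50 to 0.67), with 1 cluster led by Aldh1a2 and Cxcl13 at 780 CPM of Col4a1 at E15.5. Chondrocyte-like cells had 104 and 70.4 CPM of Col4a1 and 111 and 62.4 of Col4a2, tenocyte-like cells 146 and 164 and 192 and 113, and Schwann-like cells 238 and 432 and 207 and 332. Col4a1 stood to Col4a2 as 1.71 and 2.07 in endothelial-like cells, 2.01 in mural-like cells and 1.29 and 1.74 in connective tissue-like cells, so that genes sharing a start region did not keep 1 UMI ratio.

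The other type IV chains were scarce. Col4a5 and Col4a6, which share a start region on the X chromosome, each had 3 UMIs in the 17 epithelial-like cells (62.3 CPM), and outside that class Col4a5 reached 18.2 CPM (Schwann-like, E15.5) and Col4a6 1.72 CPM. Col4a4 peaked at 11.1 CPM in Schwann-like cells at E15.5, and Col4a3 at 1.01 CPM.

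The multiplexins were also high in endothelial-like cells, but low in mural-like cells, with 72.1 CPM of Col15a1 and 42.9 of Col18a1 at E15.5. Col15a1 was at 648 and 499 CPM in endothelial-like cells (-0.38, -0.54 to -0.20), and the next class at E15.5, chondrocyte-like cells, had 74.4 CPM. Col18a1, whose C-terminal fragment is endostatin, was at 722 and 439 CPM in endothelial-like cells (-0.72, -0.88 to -0.55). Schwann-like cells had 353 and 467 CPM of it, which at E15.5 did not differ from the endothelial-like level beyond counting error (0.09, -0.08 to 0.25). Muscle-like cells had 28.2 and 91 CPM of Col18a1 (1.69, 1.33 to 2.07) and 3.22 and 27.6 of Col15a1 (3.1, 2.09 to 4.34).

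Type VI chains, which form the filaments next to the cell surface and around muscle, stood out in connective tissue-like cells at E15.5. Their summed level there was 259 and 1948 CPM (2.91, 2.87 to 2.95), or 3.94% and 11.5% of collagen UMIs. Col6a1 was at 68 and 623 CPM (3.19, 3.11 to 3.28), Col6a2 at 80.5 and 564 (2.81, 2.73 to 2.89) and Col6a3 at 96.2 and 659 (2.78, 2.71 to 2.85), which are the 3 chains of the common molecule. Col6a6, an alternative to Col6a3, was at 4.99 and 89.4 CPM (4.16, 3.87 to 4.47). Col6a5 had 8.92 and 11.9 CPM, and Col6a4 at most 5.85 CPM. In tenocyte-like cells Col6a3 was at 165 and 317 CPM, Col6a1 at 108 and 254 and Col6a2 at 84.6 and 242, and in chondrocyte-like cells at 42.9 and 257, 30.3 and 240, and 40.8 and 217. Muscle-like cells at E15.5 had 75.9 CPM of Col6a1 and 58.7 of Col6a2 but 19.6 of Col6a3, an immune-like level of 18.7, so that Col6a1 stood to Col6a3 as 3.88 (3.17 to 4.79). Mural-like cells were the reverse, with 384 CPM of Col6a3, 101 of Col6a1 and 120 of Col6a2, a ratio of 0.264 (0.211 to 0.328).

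Fibril-associated chains outside cartilage split by age. Col14a1, found along type I fibres, was higher at E15.5 in all 3 mesenchymal classes: 30.4 and 400 CPM in connective tissue-like cells (3.72, 3.60 to 3.84), 23.1 and 326 in tenocyte-like cells (3.82, 2.69 to 5.28) and 12.1 and 246 in chondrocyte-like cells (4.35, 3.91 to 4.82). Schwann-like cells had 61.3 and 309 CPM. Col12a1, its relative in tendon and fascia, was at 1215 and 537 CPM in tenocyte-like cells (-1.18, -1.38 to -0.98), a direction that turned to 0.74 when both libraries were clustered together. It was at 118 and 487 CPM in chondrocyte-like cells (2.04, 1.87 to 2.21) and 239 and 315 in connective tissue-like cells (0.40, 0.35 to 0.46), with 107 and 61.7 CPM in Schwann-like cells and 125 in mural-like cells. At E12.5 it stood 2.35 above the next class on the log2 scale in tenocyte-like cells (2.18 to 2.51), and at E15.5 the tenocyte-like and chondrocyte-like levels did not differ beyond counting error (0.14, -0.02 to 0.30). Col16a1 was at 80.6 and 205 CPM in chondrocyte-like cells (1.34, 1.11 to 1.57), 35.7 and 125 in connective tissue-like cells (1.81, 1.69 to 1.93) and 26.9 and 126 in tenocyte-like cells (2.23, 1.15 to 3.57).

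Some scarce fibril-associated chains belonged to other tissues. Col20a1 was a Schwann-like chain, at 76.7 and 150 CPM, with at most 0.976 CPM in any other class at E15.5. Col19a1 was at 18.1 and 17.6 CPM in muscle-like cells, which did not differ beyond counting error from the next class (log2 1.24, -0.70 to 4.32, and 0.54, -0.33 to 1.53). Col22a1, known from muscle-tendon junctions, had 0 and 15 UMIs in tenocyte-like cells (0 and 12.9 CPM).

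Short chain collagens form lattices in vessels and corneal membranes. At E15.5 Col8a1 was highest in mural-like cells, with 281 CPM, while Col8a2 was at 0.974 CPM there. The summed short chain level at E15.5 was 283 CPM in mural-like cells and 305 CPM in chondrocyte-like cells. Chondrocyte-like cells had 52.9 and 173 CPM of Col8a1 (1.71, 1.44 to 1.98) and 27.5 and 131 of Col8a2 (2.26, 1.91 to 2.61). Col8a1 in endothelial-like cells rested on 2 and 44 UMIs (3.31 and 21.5 CPM). Schwann-like cells had 23 CPM at E12.5, from 3 UMIs, and 126 CPM at E15.5.

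Membrane-spanning chains were lower at E15.5 in connective tissue-like, tenocyte-like, muscle-like and Schwann-like cells (summed log2 ratios of -1.64, -1.99, -2.15 and -2.71). In chondrocyte-like cells their sum was 101 and 108 CPM, and the interval of the log2 ratio included 0 (0.11, -0.17 to 0.37). Col25a1, needed by motor axons to enter muscle, was at 404 and 49.9 CPM in tenocyte-like cells (-3.02, -3.50 to -2.54), 94.1 and 15.3 in connective tissue-like cells (-2.62, -2.81 to -2.45) and 192 and 24.3 in Schwann-like cells. Chondrocyte-like cells went the other way, at 54.9 and 96.3 CPM (0.81, 0.50 to 1.12), the highest level of Col25a1 at E15.5 and a 2-fold call after scaling to the median gene. In muscle-like cells it was at 57.1 and 4.6 CPM (-3.63, -4.27 to -3.04), and at each age it was highest in the cluster led by genes of the contractile apparatus: 215 CPM in the E12.5 cluster led by Myh3 and 45 CPM in the E15.5 cluster of 16 cells led by Mylpf, where the cluster led by Msc and Pax7 had 21.6 CPM at E12.5. Col23a1 was highest in connective tissue-like cells, at 78 and 32.9 CPM (-1.25, -1.38 to -1.11), and fell to 5.31 CPM from 43.9 in chondrocyte-like cells (-3.05, -4.28 to -2.04). Col13a1, a chain of neuromuscular and cell-matrix junctions, went the other way in tenocyte-like cells, from 3 UMIs (11.5 CPM) to 63 UMIs (54.2 CPM). Col17a1, the hemidesmosome chain of epidermis, was at 270 CPM in epithelial-like cells, from 13 UMIs. Those 17 cells also had 270 CPM of Col3a1, 249 of Col1a2, 228 of Col4a1, 166 each of Col1a1 and Col4a2, and 145 each of Col2a1, Col5a1, Col5a2 and Col18a1, from 7 to 13 UMIs a chain. Col2a1 there was below the E12.5 immune-like level.

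Of the remaining members Col26a1 was highest in muscle-like cells, at 84.1 and 83 CPM (-0.02, -0.25 to 0.22), with 65.7 and 71.4 in connective tissue-like cells. Col24a1 was at 34.6 and 19.8 CPM in tenocyte-like cells and 5.9 and 28.6 in chondrocyte-like cells. Col7a1, the anchoring fibril chain of skin, had 20.8 CPM in epithelial-like cells from 1 UMI, and 118 CPM in an E15.5 connective tissue-like cluster led by Stmn2, Twist2 and Irx1. Col28a1 reached 7.67 CPM, from 1 UMI in E12.5 Schwann-like cells. In all, 27 members reached 100 CPM in some class, 13 reached 10 to 100 CPM, and Col4a3, Col6a4, Col10a1 and Col28a1 stayed under 10 CPM.

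Chains were also counted by a fixed size, a ratio of at least 2-fold whose interval leaves out no change. The share of chains higher at E15.5 exceeded that of all genes in every class present at both ages but the immune-like one. Chains were counted where they reached 10 CPM at either age. In connective tissue-like cells 13 of 32 measured chains were higher and 8 lower at E15.5, where 7.84% of all measured genes were higher and 18% lower. As shares, 40.6% of the chains were higher and 25% lower, so that the lower count lies near its background. The higher ones were Col1a1, Col1a2, Col3a1, Col4a1, Col5a1, Col5a2, Col5a3, Col6a1, Col6a2, Col6a3, Col6a6, Col14a1 and Col16a1. The lower ones were the cartilage chains Col2a1, Col9a1, Col9a2, Col9a3, Col11a1 and Col11a2 with Col23a1 and Col25a1. In chondrocyte-like cells 14 of 28 were higher (background 7.93%) and 1, Col23a1, was lower (16.5%). Tenocyte-like cells had 10 of 30 higher (5.56%) and 9 lower (22.9%), so that the lower count lies near its background. Of the 10, Col11a2 rests on 1 UMI at E12.5, Col18a1 on 2 and Col13a1 on 3. Muscle-like cells had 11 of 25 higher (3.3%) and 8 lower (17.9%). Of the lower ones Col2a1, Col9a2, Col9a3, Col11a1, Col12a1 and Col27a1 were below the immune-like level at E12.5, compared without intervals. Endothelial-like cells had 4 of 16 higher (4.81%) and 4 lower (12.9%), none of them a type IV or multiplexin chain. Of the higher ones, Col1a1, Col1a2 and Col6a3 stood at 65.9, 73.7 and 11.2 CPM at E15.5, below immune-like levels of 92, 88.9 and 18.7 CPM, and the other was Col8a1. Of the lower ones Col2a1, Col9a1 and Col11a1 were below the immune-like level at E12.5, at 51.2, 19.8 and 46.3 CPM, and the other was Col23a1. Schwann-like cells had 9 of 29 higher (3.95%) and 2 lower (9.88%), with Col15a1 among the 9 although its 0 UMIs at E12.5 allow only a log2 ratio of at least 0.49 against a floor of 3 UMIs. In immune-like cells 0 of 18 were higher (2.51%) and 9 lower (9.16%). Erythroid-like cells had 12 of 24 higher (11.6%) and 3 lower (4.21%), and the unnamed clusters together 11 of 31 higher (8.12%) and 9 lower (21.3%).

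The median chain had a log2 ratio of 0.50 in connective tissue-like cells, where the median gene had -0.35, 0.93 against -0.31 in chondrocyte-like cells and 0.30 against -0.52 in tenocyte-like cells. The medians were 0.32 against -0.38 in muscle-like cells and -0.44 against -0.28 in endothelial-like cells. Scaling each class so that its median gene had no change gave 14 higher and 6 lower chains in connective tissue-like cells (13.4% and 9.15% of all genes), 16 and 1 in chondrocyte-like cells (12.6% and 8.34%) and 14 and 5 in tenocyte-like cells (13.4% and 11%). It gave 11 and 8 in muscle-like cells (8.83% and 8.94%) and 4 and 4 in endothelial-like cells (9.38% and 6.39%).

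**Figure D4:**
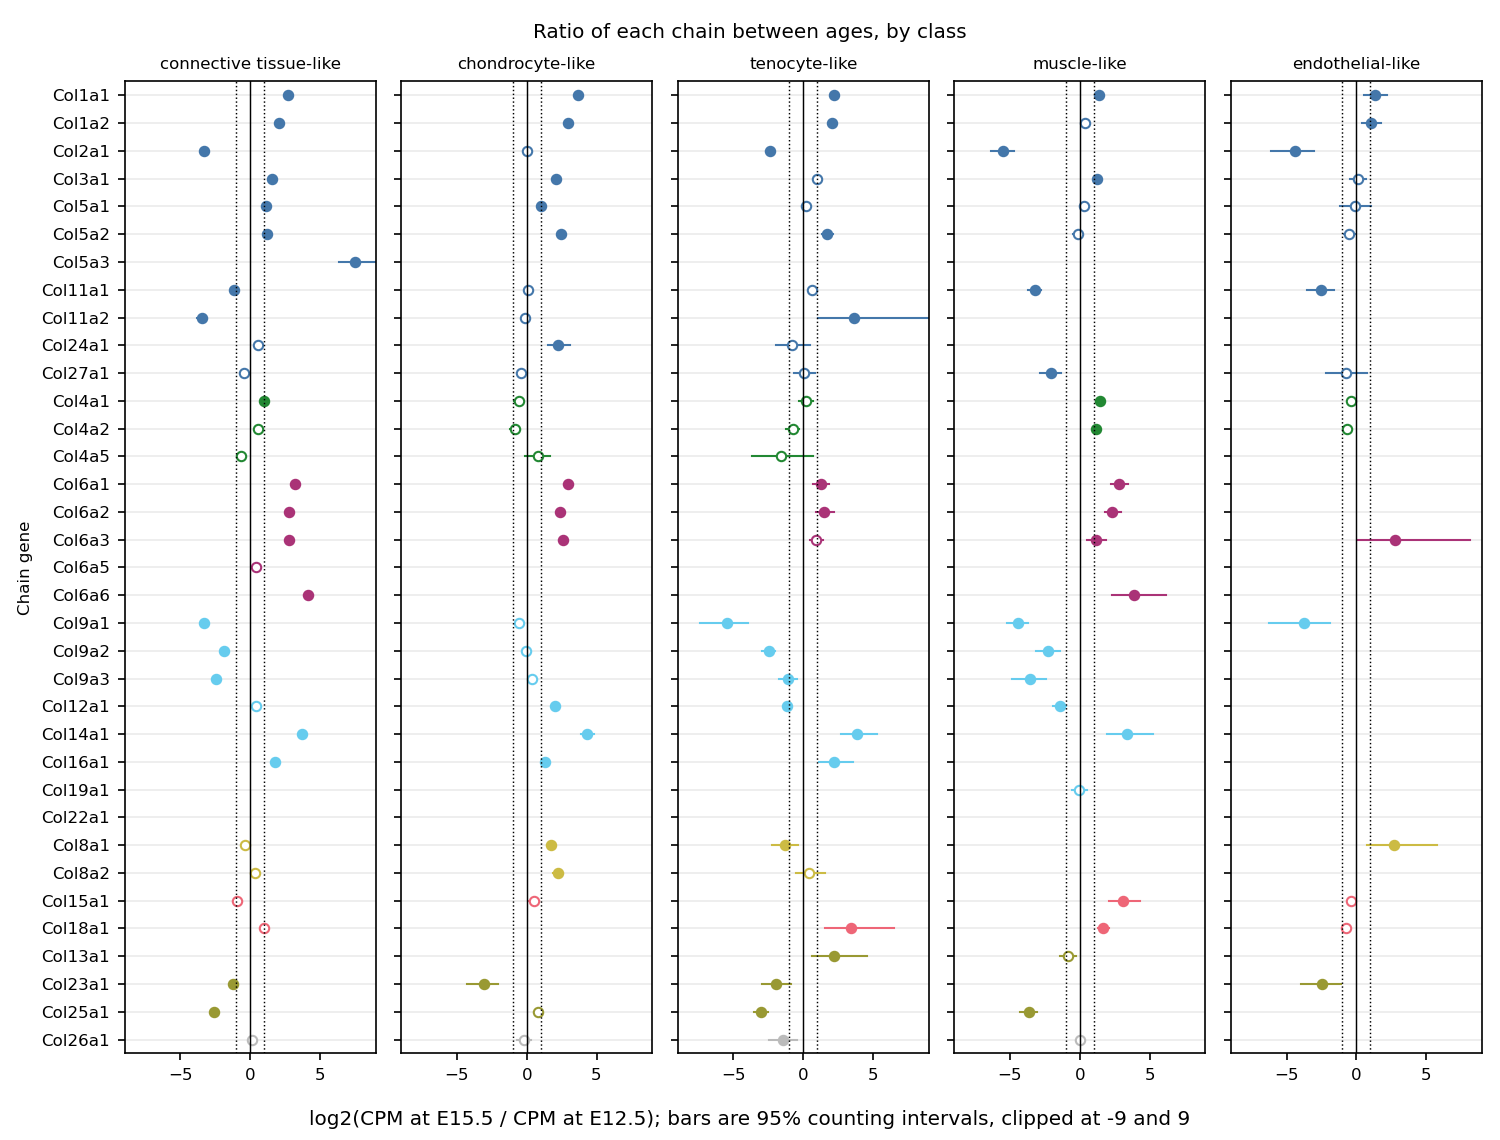
Log2 ratio of each measured chain (E15.5 over E12.5) in 5 classes, with 95% counting intervals, coloured by family and filled where the chain differed at least 2-fold with an interval that leaves out 0. Type I, III, V and VI chains lie to the right and cartilage chains to the left in connective tissue-like cells, and the type IV and multiplexin chains of endothelial-like cells lie just left of 0.

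Chains were also set against other classes at 1 age. The classes compared were connective tissue-like, chondrocyte-like, tenocyte-like, muscle-like, endothelial-like, Schwann-like and immune-like cells, with mural-like cells at E15.5. Erythroid-like, mast-like, epithelial-like and unnamed cells were left out, for chains and background alike. Chains at least 2-fold above every other class compared, with at least 50 CPM there, were most often chondrocyte-like. At E12.5, 8 of 27 tested chains were so in chondrocyte-like cells (Col2a1, Col9a1, Col9a2, Col9a3, Col11a1, Col11a2, Col16a1 and Col27a1), where 1.08% of all genes were. Endothelial-like cells had Col4a1, Col4a2, Col15a1 and Col18a1 (background 4.82%), tenocyte-like cells Col1a1, Col12a1 and Col25a1 (1.51%), and Schwann-like cells Col14a1 and Col20a1 (3.27%). This count asks for the fold alone, and intervals of the log2 ratio to the next class included 0 for Col14a1 (1.01, -0.20 to 2, from 8 UMIs) and Col16a1 (1.07, -0.17 to 2.71). At E15.5, with mural-like cells among the classes, 30 chains were tested and 8 were chondrocyte-like (1.49%), the same as at E12.5 but for Col16a1, with Col8a2 added. Connective tissue-like cells had 3, the type VI chains Col6a1, Col6a2 and Col6a6 (0.68%), after 0 at E12.5 (0.254%). Tenocyte-like cells had Col13a1 (0.573%), endothelial-like cells Col15a1 (4.06%) and Schwann-like cells Col20a1 (4.37%). Muscle-like cells had 0 at both ages (1.97% and 1.66%) mural-like cells 0 (1.66%), and immune-like cells 0 at both ages (7.98% and 9.97%).

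Single cells were compared after thinning each to 2000 UMIs, which left out 3049 connective tissue-like and 605 chondrocyte-like cells of the E12.5 library and 6 and 0 of the E15.5 library. Col1a1 had a UMI in 50.9% and 93.3% of connective tissue-like cells (53% and 99% without thinning), and in 16% and 20.9% of immune-like cells, whose median depths were 5089 and 10586 UMIs against 2278 and 9345. Col6a3 was in 16.3% and 63.8% of connective tissue-like cells, against 4% and 2.33% of immune-like cells. Col2a1 went from 51.5% to 6.66%, against 16% and 0% of immune-like cells, a 0 of 43 cells that allows up to 6.98%. Col14a1 went from 4.63% to 34.7%, and was in 0% (which allows up to 12%) and 2.33% of immune-like cells. In endothelial-like cells Col4a1 was in 98.2% and 86.8%, and Col15a1 in 68.4% and 46.5%, against 0% of immune-like cells for both chains at both ages, which allows up to 12% and 6.98%. In muscle-like cells Col4a1 was in 19.7% and 45.7%. The median thinned cell held UMIs of 7 and 9 chains in connective tissue-like cells, 8 and 11 in chondrocyte-like cells, 9 and 9 in tenocyte-like cells, 4 and 4 in endothelial-like cells, 2 and 2 in muscle-like cells, and 1 and 0 in immune-like cells. The chain with most UMIs in a cell was Col3a1 in 38.9% and 49.7% of connective tissue-like cells and Col2a1 in 48.3% and 29.5% of chondrocyte-like cells. It was Col1a1 in 47.5% of tenocyte-like cells at E15.5 and Col4a1 in 66.7% and 55% of endothelial-like cells.

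Clusters inside a class carried different mixtures. In E15.5 connective tissue-like cells the summed level ran from 10904 to 34590 CPM over 11 clusters. The highest, 159 cells led by Dpt, Wnt2 and Clec3b, had 9387 CPM of Col3a1, 9092 of Col1a1, 1340 of Col14a1 and 225 of Col5a3. A cluster of 420 cells led by Aldh1a3 and Ngfr had the most type VI, with 1004 CPM of Col6a3 and 816 of Col6a1, and the least Col1a1, 1963 CPM. The cluster led by Stmn2, Twist2 and Irx1 had 280 CPM of Col8a1 and 162 of Col23a1. At E12.5 the sum ran from 3958 to 10328 CPM over 20 clusters, highest in 188 cells led by Grem1 and Kera, with 4089 CPM of Col3a1.

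Muscle-like clusters differed in their basement membrane chains. At E15.5 both clusters led by Pax7 and Msc, genes of muscle progenitors, had 436 and 431 CPM of Col4a1 and 125 and 120 of Col18a1, and the cluster of 16 cells led by Mylpf, a myosin light chain of fibres, had 35.5 CPM of Col4a1. At E12.5 the cluster led by Msc and Pax7 had 173 CPM of Col4a1 and the cluster led by Myh3, an embryonic myosin heavy chain, 26.8 CPM. Col19a1 ran the other way, with 80.5 CPM in the cluster led by Myh3 and 54.5 CPM in the one led by Mylpf. Connective tissue markers summed to 203 and 138 CPM in the E15.5 clusters led by Pax7 and Msc and to 514 CPM in the one led by Mylpf, where Col1a1 was at 499.9 CPM; their part in the Col1a1 level was not tested. Endothelial-like cells at E15.5 held a shallow cluster of 30 cells (median 1448.5 UMIs) with 126 CPM of Col4a1, beside 2026 CPM in the cluster of 120 cells.

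**Figure D5:**
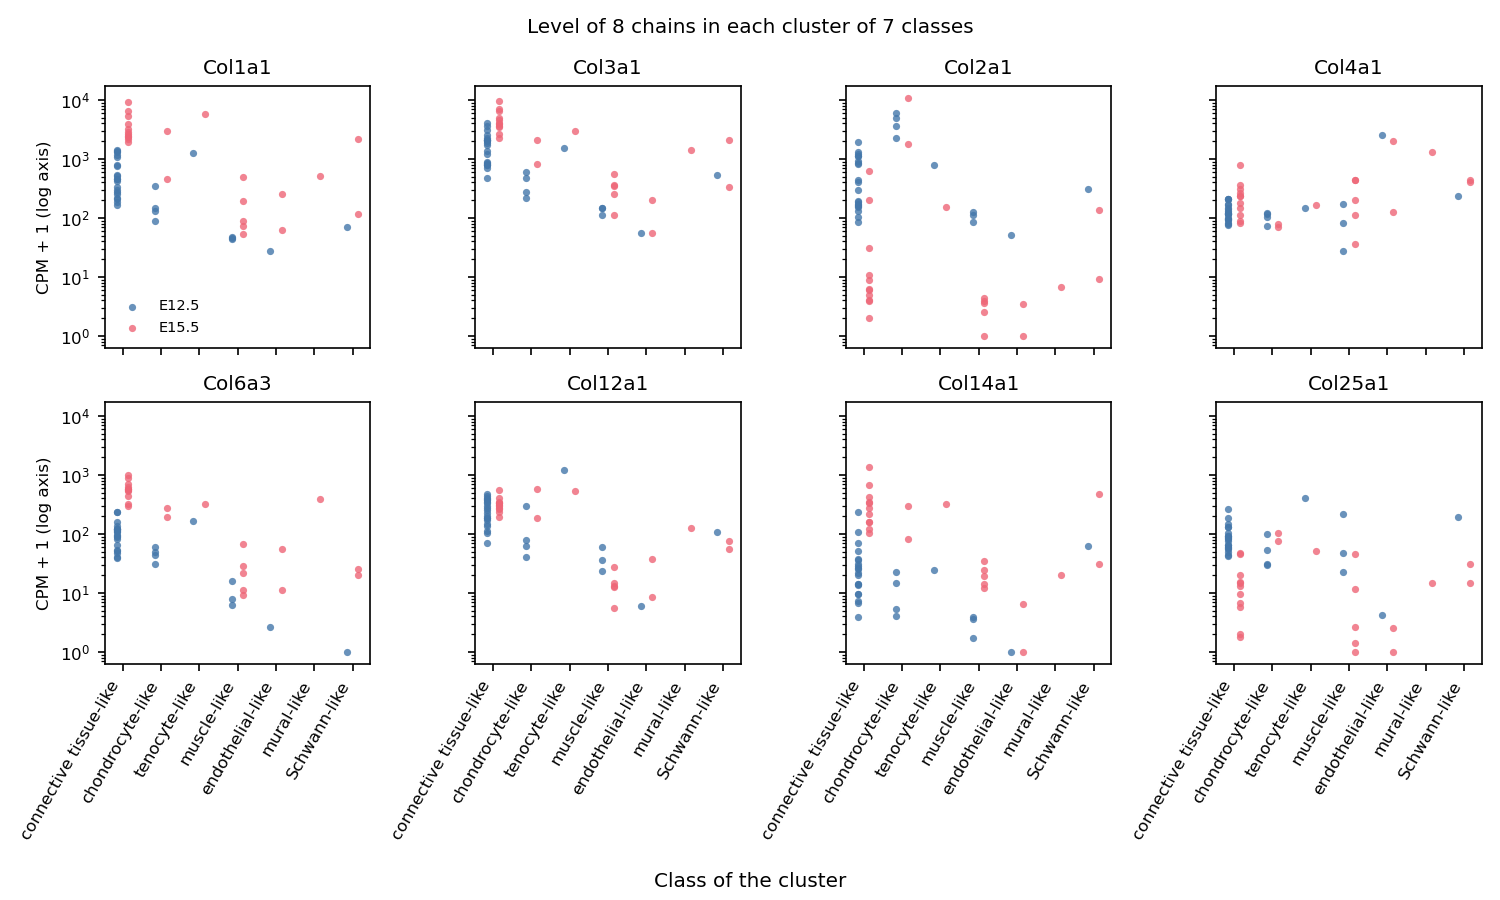
Level of 8 chains in each cluster (points, CPM + 1 on a log axis) of 7 classes at E12.5 and E15.5. Connective tissue-like clusters of E15.5 run from 1.02 to 625 CPM of Col2a1, and muscle-like clusters of E15.5 from 35.5 to 436 CPM of Col4a1, with the clusters led by Pax7 and Msc highest.

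Genes that make, process and bind collagen were read from a list of 48 in the same way. In connective tissue-like cells 13 of 38 measured were at least 2-fold higher and 3 lower at E15.5 (7.84% and 18% of all genes). The higher ones included Sparc, a collagen chaperone of the matrix (418 and 2028 CPM, 2.28, 2.24 to 2.31). Ppib of the prolyl 3-hydroxylation complex (389 and 864 CPM) was among them, with Crtap (49.1 and 135) and P3h1 (25.8 and 72.2). So were P3h4 (34.6 and 87.8) and the crosslinking enzymes Lox (62.1 and 153) and Loxl1 (23.3 and 87.8). Pcolce, an enhancer of propeptide removal (54 and 161 CPM), the folding helpers Fkbp10 (50.1 and 111) and Fkbp7 (67.1 and 166), the glycosyltransferase Colgalt1 (67.4 and 136) and the collagenase Mmp14 (109 and 222) were also higher. Tenocyte-like cells had 14 of 36 higher and 4 lower (5.56% and 22.9%), with the collagen chaperone Serpinh1 at 727 and 1516 CPM (1.06, 0.84 to 1.28), Sparc at 803 and 2040, Ppib at 531 and 1123, Pcolce at 76.9 and 305, Mmp14 at 142 and 298 and Lox at 65.4 and 169. Lower there were Ddr2, a collagen receptor (154 and 66.2 CPM), and Mia3, a collagen export factor (192 and 91.2). Chondrocyte-like cells had 8 of 38 higher and 1 lower (7.93% and 16.5%), with Sparc at 348 and 1404 CPM, Loxl1 at 11 and 66.4, Lox at 11.8 and 55.1 and Mmp2 at 75.5 and 161, and the glycosyltransferase Colgalt2 lower, at 55.2 and 5.98. Muscle-like cells had 1 of 31 higher and 8 lower (3.3% and 17.9%), among them Lox (66 CPM at E12.5, log2 ratio -2.40), Mia3 (93.3 and 43.4), P4ha1, a prolyl 4-hydroxylase subunit (64.8 and 32.2), and Ddr1 (56.7 and 24.3). Endothelial-like cells had 2 of 27 higher and 3 lower (4.81% and 12.9%), with P4ha1 at 90.9 and 42.5 CPM and the collagen-binding integrin Itga1 at 193 and 94.2.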

How the data were processed

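The 2 10x libraries (WT C57Bl/6 limb muscle, E12.5 and E15.5, 1 each) were analysed. The deposited files hold whole UMI counts per gene and barcode. Per the file headers they came from Cell Ranger 4.0.0, and the submitters' processing notes name the build mm10 and Seurat 4.3.0. Cells with at least 500 genes and under 10% mitochondrial UMIs were kept, after removing 0.8% doublets per 1000 cells, scored against 2 simulated doublets per cell. Each library was clustered alone on 2000 variable genes, 30 principal components, 15 neighbours and Leiden resolution 2 (seed 0), leaving out collagen and collagen machinery genes, 53 cell cycle, 6 sex and 6 limb position genes. A cluster was named where at least 3 markers of 1 of 14 classes stood 2-fold above their level in all other clusters and were in 10% of its cells, with a marker among its leading 10 genes (10 CPM added) and no more of another class there. Connective tissue-like clusters were compared with the clusters of other names, needed no leading marker, and were not named where shallower than 1/3 of the library median. This naming rule was set after the clusters were seen.

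UMIs were summed per class. Levels carry exact Poisson and ratios exact binomial 95% intervals. A chain was measured with at least 10 CPM at 1 age and called at 2-fold with an interval excluding no change. Where 1 age had 0 UMIs, the call rested on the interval. A floor of 3 counts then gave a separate bound on the ratio and took no part in the call. Values are given in each class with at least 100 CPM at either age, or for the highest class, and machinery genes where called with at least 50 CPM. Erythroid-like and unnamed cells were left out of that rule. In erythroid-like cells 4 chains at E12.5 and 9 at E15.5 reached 100 CPM, and their levels are not given. Members and lists were chosen with earlier results of these data known. On simulated data for connective tissue-like, muscle-like and endothelial-like cells, 100%, 100% and 98.5% of 200 genes changed 4-fold were called. Promoter sequences came from RefSeq (GRCm38.p6). Tools were Python 3.11.15, numpy 2.4.6, scipy 1.17.1, pandas 2.3.3, leidenalg 0.10.2, igraph 0.11.9, matplotlib 3.10.9 and scikit-learn 1.9.0. Alternatives were other clustering, filters, scaling, thinning and minimum levels.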

Additional observations from a re-analysis of the deposited data

Results flagged for a closer look

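For 3 chains the ratio between ages was at least 2-fold higher in one class and at least 2-fold lower in another, and the differences between classes were not tested. Col12a1 had a log2 ratio (E15.5 over E12.5) of 2.04 in chondrocyte-like cells (1.87 to 2.21), -1.18 in tenocyte-like cells (-1.38 to -0.98) and -1.45 in muscle-like cells (-1.91 to -0.99). The tenocyte-like direction turned to 0.74 with both libraries clustered together. The muscle-like level at E12.5 (35 CPM) was below the immune-like level (45.8 CPM), where 3 UMIs make 22.9 CPM. These levels were compared without intervals. Col8a1 had 1.71 in chondrocyte-like cells (1.44 to 1.98), 2.70 in endothelial-like cells (0.76 to 5.79, from 2 UMIs at E12.5) and -1.33 in tenocyte-like cells (-2.21 to -0.41). The endothelial-like ratio was 0.12 with cells of equal weight and 0.82 with thinned cells, and the tenocyte-like ratio -0.81 after scaling to the median gene and -0.84 with doublets kept, all under 2-fold. Col11a2 had 3.62 in tenocyte-like cells (1.08 to 8.95, from 1 UMI at E12.5) and -3.44 in connective tissue-like cells (-3.83 to -3.07), and the tenocyte-like ratio turned to -0.026 with 4000 variable genes.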

How the results depend on the processing

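No paired analysis was possible because each age is a single library. Values are log2 ratios of the summed collagen level or counts of chains, each with 1 choice changed. At Leiden resolution 1 the ratio was 1.44 in connective tissue-like and 0.33 in chondrocyte-like cells, with 2 lower chains in the latter. With 4000 variable genes it was 1.46, 0.22 and, in tenocyte-like cells, 1.07, with 2 lower chondrocyte-like chains, and tenocyte-like Col11a2 turned to -0.026. Clustering both libraries together gave 1.48 and 0.77, 2 lower chondrocyte-like and 2 higher endothelial-like chains, and turned tenocyte-like Col12a1 to 0.74 and Col9a3 to 0.0071. Keeping doublets gave 1.45, 0.23, 1.17 (tenocyte-like), 0.31 (muscle-like) and -0.58 (endothelial-like), with 4 lower chondrocyte-like and 9 lower endothelial-like chains. A minimum of 1000 genes gave 1.46 and 0.27, with 2 lower chondrocyte-like chains. Clustering on collagen genes too gave 1.53, 0.17 and 0.58 (muscle-like), with 6 lower chondrocyte-like chains. Scaling to the median gene gave 1.71, 0.96, 1.5, 0.85 and -0.18 in the same order of classes, with 5 lower tenocyte-like chains. Cells of equal weight gave 1.26 and, in endothelial-like cells, -0.68. Thinning gave 1.25, 0.55 and, in endothelial-like cells, -0.62, with 6 higher and 4 lower tenocyte-like and 2 higher endothelial-like chains. Without the most abundant chain the ratios were 1.30, 0.86, 0.67, 0.31 and -0.52. A minimum of 50 CPM left 0 lower chondrocyte-like chains, 7 higher and 4 lower muscle-like, and 2 higher and 1 lower endothelial-like chains, and no minimum gave 13 lower muscle-like chains. Subtracting the median immune-like cell, chosen after seeing the data, gave 1.42 in connective tissue-like and 0.66 in muscle-like cells. The cause of these shifts was not tested.

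Of 82 called chain ratios, 44 kept direction and call under every alternative run (17 of 21 connective tissue-like, 9 of 15 chondrocyte-like, 6 of 19 tenocyte-like, 10 of 19 muscle-like and 2 of 8 endothelial-like). Over 919 alternatives of these ratios 839 kept both, 77 lost the call and 3 reversed. Of 11 summed levels none stayed within its counting interval under all 5 alternatives, and 35 of 55 values moved beyond it. Those of mural-like cells reached 9397 CPM with both libraries clustered together. Each age is 1 library, so age cannot be told apart from library, embryos and dissociation. E12.5 cells were shallower, and tenocyte-like, Schwann-like and immune-like levels at E12.5 rest on few cells.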

Other observations

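Several unnamed clusters also carried collagen chains. An E12.5 cluster of 184 cells with Runx2 and Dlx5 among its leading genes had 131 CPM of Col6a5, where connective tissue-like cells as a class had 8.92 CPM. At E15.5 a cluster of 188 cells led by Tnxb and Mfap5 had a summed level of 21261 CPM, and one of 16 cells led by Dct and Krt14 had 149 CPM of Col17a1.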
